A study of Mus musculus with 24 samples.

Results

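Arterial and venous endothelial genes are 10 genes that mark the vessels on either side of the brain's capillary bed, chosen by symbol among the 55421 gene identifiers of the count table. The arterial genes are Gkn3, Sema3g, Bmx, Efnb2, Gja4 and Gja5, and the venous genes are Vwf, Slc38a5, Nr2f2 and Ackr1. They were picked with the LPS response of these same libraries known, so their LPS changes are a description. There, rose, fell and called say only that a gene passed the threshold of the fit over all genes, and p-values are given for the members in the comparisons between genotypes only. All 10 genes were found, and 9 passed the filter on low counts that preceded testing. Gja5 did not pass it.

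RNA came from the left brain hemisphere of 24 mice aged 3 months, with 6 mice in each of 4 groups: Nox2 knockout given LPS, Nox2 knockout given PBS, wild type given LPS, and wild type given PBS. LPS, lipopolysaccharide, is a cell wall component of gram-negative bacteria that the immune system recognises, here from Salmonella abortus equi, and it was injected into the peritoneum at 1 µg per g body weight on each of 4 days. PBS is the saline vehicle, and both were given in 100 µl. Nox2, also called gp91phox, is the subunit of the phagocyte NADPH oxidase that makes superoxide, and Cybb encodes it. The study's title concerns its part in neurodegeneration after repeated systemic LPS. All libraries carry the strain label C57BL/6J, and the labels do not say how the knockout allele was made.

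Endothelial cells change their gene programme along the vessel, from arteries and arterioles through capillaries to venules and veins. Notch signalling and ephrin-B2 mark the arterial side, and the nuclear receptor encoded by Nr2f2 keeps venous cells venous by holding Notch signalling down. In inflammation, leukocytes leave the blood mainly at post-capillary venules, where the endothelium presents chemokines and adhesion molecules.

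Libraries held 2340184 to 5256169 counts. Levels are given in CPM, counts scaled to a common library total of 1e6, so 1 CPM stands for 2.34 to 5.26 counts. The kit primes near the 3′ end of a transcript, so a count does not grow with a gene's length, although PCR copies of a tag can be counted more than once. Cybb averaged 71.9 ± 4.50 CPM (SD, n = 6) in knockout LPS, 67.5 ± 5.08 CPM in knockout PBS, 24.6 ± 8.07 CPM in wild type LPS and 1.48 ± 0.644 CPM in wild type PBS. Since 3′ tags can survive a disruption elsewhere in a gene, and its place in Cybb is not given, the levels are no check of genotype. Knockout below means libraries with that label. Replicates 1 and 2 of wild type LPS stood apart from replicates 3 to 6, with 8.68 and 8.90% of counts from mitochondrially encoded genes against 6.03 to 6.71%. Results are given without both where that changed a call. The neuron list, 7 genes such as Snap25 and Syt1, summed to 4334 to 4587 CPM in knockout LPS, 4874 to 5129 CPM in knockout PBS, 4148 to 4469 CPM in wild type LPS and 4879 to 5094 CPM in wild type PBS, so neuronal RNA was abundant in every library. Of 7 tested neuron genes, 1 fell in knockout and 3 fell in wild type.

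Promoter sequences are shown for 3 members that lay apart between LPS and PBS or moved most in their class, the arterial gene Gkn3, which fell, and the venous genes Slc38a5 and Ackr1, which rose. Of the 10 members, 9 had an entry in the RefSeq promoter table for GRCm38.p6, which gives 250 bases before and 50 bases after each annotated start. Each was searched on both strands for 6 short motifs, and capitals mark the matches. The NF-kB motif, GGG and TTTCC with any 2 bases between, was in 1.63% of the 32851 promoters of the table. The RBPJ motif GTGGGAA, for the DNA-binding partner of Notch, was in 6.38% of them. The STAT motif TTCNNNGAA was in 8.30%. The GATA motif AGATAA was in 11.2%. The ETS motif CAGGAAG was in 13.3%. The nuclear receptor half-site AGGTCA was in 16.3%. The window of Gkn3 is chr6:87388886-87389185 on the minus strand, that of Slc38a5 chrX:8271131-8271430 on the plus strand and that of Ackr1 chr1:173333454-173333753 on the minus strand.
Gkn3: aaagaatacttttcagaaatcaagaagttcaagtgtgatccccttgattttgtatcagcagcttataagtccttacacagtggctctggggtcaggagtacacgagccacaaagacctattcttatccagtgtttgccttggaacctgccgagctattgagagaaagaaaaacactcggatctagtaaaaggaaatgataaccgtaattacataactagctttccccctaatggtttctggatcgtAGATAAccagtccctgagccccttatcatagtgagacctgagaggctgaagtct
Slc38a5: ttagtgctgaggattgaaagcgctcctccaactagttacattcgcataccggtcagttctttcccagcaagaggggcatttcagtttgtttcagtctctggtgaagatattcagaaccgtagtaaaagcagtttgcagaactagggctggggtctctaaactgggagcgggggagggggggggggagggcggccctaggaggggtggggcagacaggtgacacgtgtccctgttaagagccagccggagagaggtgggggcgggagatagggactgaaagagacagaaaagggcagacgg
Ackr1: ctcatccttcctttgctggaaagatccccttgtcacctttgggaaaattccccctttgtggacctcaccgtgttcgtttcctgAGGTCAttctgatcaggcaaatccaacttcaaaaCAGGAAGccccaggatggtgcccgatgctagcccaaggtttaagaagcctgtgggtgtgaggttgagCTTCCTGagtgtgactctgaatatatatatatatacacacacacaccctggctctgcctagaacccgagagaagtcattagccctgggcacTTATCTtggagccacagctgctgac
The Gkn3 window held 1 GATA match, which begins at position -4 from the start. The Ackr1 window held 1 GATA match at 25, 2 ETS matches at -133 and -66, and 1 half-site at -167, all counted from the start. The other 7 windows, those of Sema3g, Bmx, Efnb2, Gja4, Gja5, Slc38a5 and Nr2f2, held no match to these letters, and none of the motif matches overlapped another.

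After LPS the venous genes were higher, and the arterial genes were divided. All 4 venous genes were higher after LPS in both genotypes, led by Vwf, which rose by 2.65 ± 0.13 on the log2 scale (SE, edgeR) in knockout and 2.94 ± 0.11 in wild type. Of the 5 tested arterial genes, Sema3g and Bmx rose in both genotypes, Gja4 rose in wild type, Efnb2 was called in neither, and Gkn3 fell by 2.08 ± 0.33 in knockout and 2.51 ± 0.37 in wild type. In knockout, 7 of 9 tested members were called at an adjusted p under 0.05, 6 higher and 1 lower, where 10.9% of the 14380 genes tested were called, 7.05% higher and 3.82% lower. In wild type, 8 of 9 were called, 7 higher and 1 lower, where 18.1% of all tested genes were called, 10.9% higher and 7.12% lower. Since these contrasts were known when the genes were picked, nothing is read from these counts. The median log2 fold change over the 9 members was 0.61 in knockout and 0.64 in wild type, and over all tested genes it was -0.00 in knockout and -0.01 in wild type. In whole-hemisphere RNA, fewer cells of a type and less RNA per cell cannot be told apart.

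**Figure D1:**
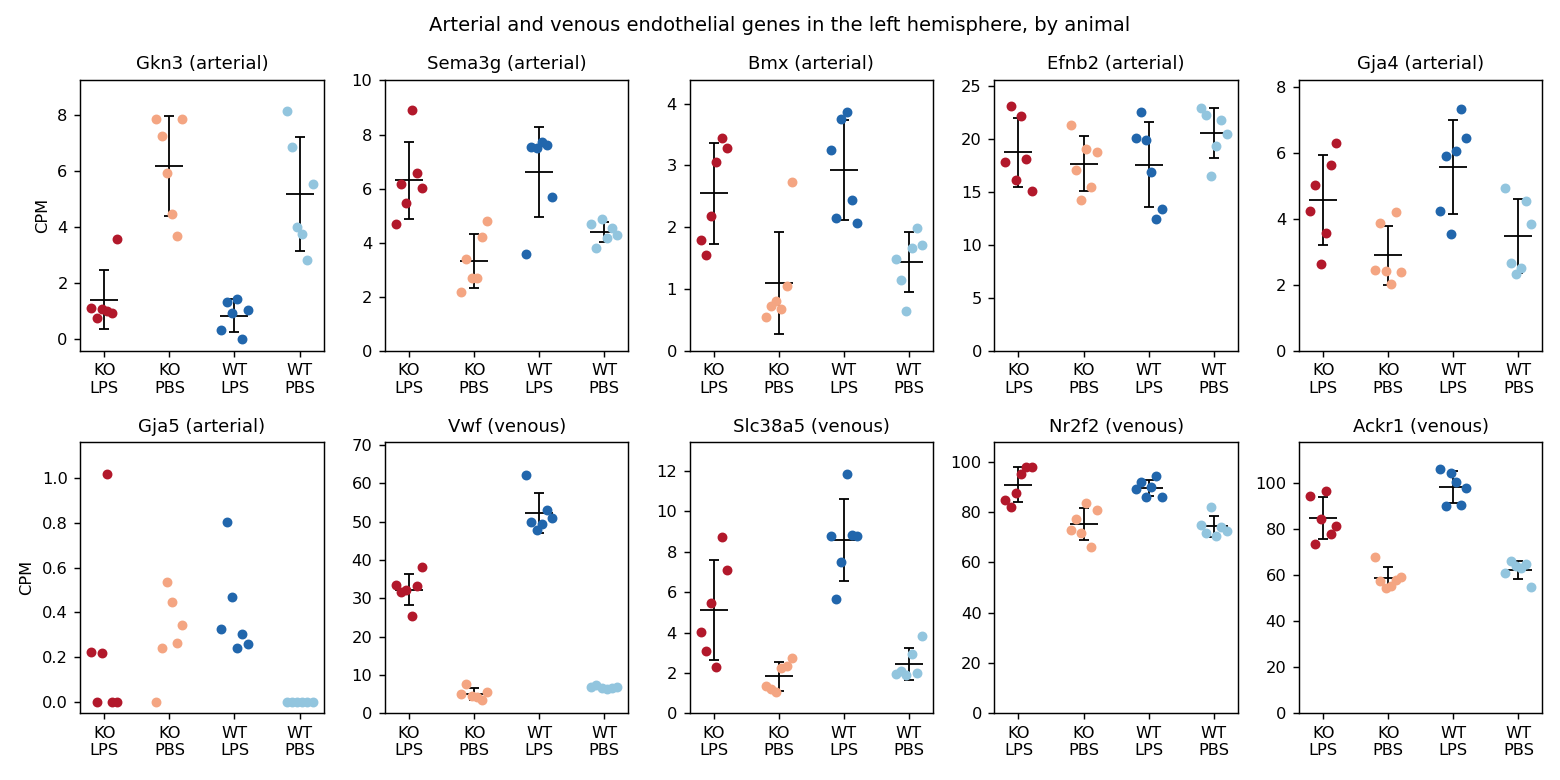
Level of each member in CPM (vertical axis, 1 panel per gene) in the 24 libraries, by group, with bars for the group mean and SD where drawn (not for Gja5, where most libraries hold 0 to 2 counts). Every LPS library lies below every PBS library of its genotype for Gkn3 and above for Vwf, and the 6 knockout LPS libraries lie below the 6 wild type LPS libraries for Vwf.

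Gkn3 (ENSMUSG00000030048, chromosome 6, 87383256 to 87388935, minus strand, GRCm38) belongs to the gastrokine family and is a marker of arterial and arteriolar endothelium in mouse brain. Its lowest, median and highest levels were 0.771, 1.06 and 3.56 CPM in knockout LPS and 3.67, 6.58 and 7.87 CPM in knockout PBS. They were 0, 0.986 and 1.45 CPM in wild type LPS and 2.83, 4.79 and 8.14 CPM in wild type PBS. Every LPS library lay below every PBS library of its genotype, in knockout only just, since replicate 6 of knockout LPS at 3.56 CPM was set against the lowest knockout PBS library at 3.67 CPM. The counts behind these levels were 32 over the 6 knockout LPS libraries, 138 over knockout PBS, 20 over wild type LPS and 129 over wild type PBS. The fall held when any single library was left out, between -2.56 and -1.99 in knockout and between -2.72 and -2.29 in wild type.

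Sema3g (ENSMUSG00000021904, chromosome 14, 31217860 to 31230352, plus strand) encodes a secreted class 3 semaphorin of arterial endothelium. It stood at 4.69, 6.10 and 8.92 CPM (lowest, median, highest) in knockout LPS and at 2.16, 3.03 and 4.79 CPM in knockout PBS. The same values were 3.57, 7.52 and 7.74 CPM in wild type LPS and 3.81, 4.40 and 4.87 CPM in wild type PBS. LPS and PBS libraries overlapped in both genotypes, in knockout through 1 pair of libraries at 4.69 and 4.79 CPM. The log2 fold change was 0.93 ± 0.22 in knockout and 0.60 ± 0.20 in wild type, and both were called. The wild type call was lost without any one of wild type LPS replicates 2, 3, 4 and 5 or wild type PBS replicates 2 and 4, with log2 fold changes of 0.55 to 0.58, and with no filter on low counts, at 0.58.

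Bmx (ENSMUSG00000031377, chromosome X, 164192842 to 164258193, minus strand) encodes a non-receptor tyrosine kinase of the Tec family that is found in arterial endothelium. Its lowest, median and highest levels were 1.54, 2.62 and 3.44 CPM in knockout LPS and 0.541, 0.766 and 2.74 CPM in knockout PBS. In wild type they were 2.06, 2.84 and 3.87 CPM after LPS and 0.635, 1.57 and 1.98 CPM after PBS. The wild type groups did not overlap, and the knockout groups did, through replicate 6 of knockout PBS at 2.74 CPM. The log2 fold change was 1.29 ± 0.35 in knockout and 1.07 ± 0.32 in wild type, both called. Without replicate 3 of wild type PBS the wild type change was 0.90 and was no longer called.

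Efnb2 (ENSMUSG00000001300, chromosome 8, 8617434 to 8661242, minus strand) encodes ephrin-B2, a membrane-bound ligand that meets its receptor EphB4 on venous cells. It is also made outside vessels, and it was the most abundant arterial member. It stood at 15.1, 18.0 and 23.1 CPM (lowest, median, highest) in knockout LPS and 14.3, 18.0 and 21.4 CPM in knockout PBS, and at 12.5, 18.4 and 22.6 CPM in wild type LPS and 16.5, 21.2 and 22.9 CPM in wild type PBS. The groups overlapped widely, and neither log2 fold change was called, at 0.07 ± 0.13 in knockout and -0.23 ± 0.13 in wild type. Without replicates 1 and 2 of wild type LPS together, the wild type value was -0.38 and was called lower.

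Gja4 and Gja5 encode connexins that join arterial endothelial cells through gap junctions. Gja4 (ENSMUSG00000050234, chromosome 4, 127311421 to 127314039, minus strand) stood at 2.62, 4.63 and 6.30 CPM (lowest, median, highest) in knockout LPS, 2.01, 2.43 and 4.19 CPM in knockout PBS, 3.52, 5.98 and 7.32 CPM in wild type LPS and 2.33, 3.25 and 4.93 CPM in wild type PBS. The LPS medians were the higher ones in both genotypes and the groups overlapped. The log2 fold change was 0.61 ± 0.26 in knockout, not called, and 0.72 ± 0.24 in wild type, called. The wild type call was lost without any one of wild type LPS replicates 2, 4, 5 and 6 or wild type PBS replicates 2, 3 and 4, with values of 0.62 to 0.70, and with no filter on low counts, at 0.70.

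Gja5 (ENSMUSG00000057123, chromosome 3, 96904693 to 97077416, plus strand) was close to the limit of detection. Over the 6 libraries of a group it held 6 counts in knockout LPS, 7 in knockout PBS, 9 in wild type LPS and 0 in wild type PBS. Every wild type LPS library held 1 to 3 counts. With the PBS group taken as 3 counts, Gja5 was 3.32-fold higher after LPS in wild type. That ratio takes the 9 LPS counts as exact, so it is not a lower limit. Its annotated exons overlap those of Gpr89 on the opposite strand, which averaged 30.9 CPM, and the strand setting of the counting is not given in the sources used here.

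Vwf (ENSMUSG00000001930, chromosome 6, 125546774 to 125686679, plus strand) encodes von Willebrand factor, a multimeric glycoprotein that endothelial cells store in Weibel-Palade bodies and that tethers platelets. It stood at 25.5, 32.6 and 38.1 CPM (lowest, median, highest) in knockout LPS and 3.41, 4.86 and 7.72 CPM in knockout PBS. In wild type it stood at 47.9, 50.5 and 62.3 CPM after LPS and 6.25, 6.70 and 7.42 CPM after PBS. Each LPS library lay above each PBS library of its genotype by a wide margin, and the fold change of the fit was 6.28 in knockout and 7.65 in wild type. Leaving out any single library kept the log2 value between 2.55 and 2.82 in knockout and between 2.88 and 2.97 in wild type.

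Slc38a5 (ENSMUSG00000031170, chromosome X, 8271133 to 8280179, plus strand) encodes an amino acid transporter that carries glutamine and is enriched in brain veins. Its lowest, median and highest levels were 2.29, 4.74 and 8.75 CPM in knockout LPS and 1.08, 1.80 and 2.74 CPM in knockout PBS, and 5.64, 8.77 and 11.8 CPM in wild type LPS and 1.90, 2.04 and 3.85 CPM in wild type PBS. The wild type groups did not overlap, and 1 knockout LPS library, at 2.29 CPM, reached into the knockout PBS range. The log2 fold change was 1.48 ± 0.30 in knockout and 1.84 ± 0.25 in wild type, both called. Of the 7 other SLC38 transporter genes tested, the lowest edgeR adjusted p was 0.0878 in knockout (Slc38a3) and 0.189 in wild type (Slc38a6), and the median log2 fold changes were -0.05 and 0.06.

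Nr2f2 (ENSMUSG00000030551, chromosome 7, 70351944 to 70366735, minus strand) encodes the orphan nuclear receptor COUP-TFII, which specifies veins and is also made by groups of cortical interneurons. It stood at 82.1, 91.4 and 97.8 CPM (lowest, median, highest) in knockout LPS, 66.0, 75.0 and 83.5 CPM in knockout PBS, 85.9, 89.7 and 94.5 CPM in wild type LPS and 70.7, 73.5 and 82.1 CPM in wild type PBS. The wild type groups did not overlap, although the change was the smallest of the venous members, at 0.27 ± 0.06 on the log2 scale in knockout and 0.26 ± 0.06 in wild type. Of 8 tested genes of interneurons of the lineage that uses Nr2f2, 7 were not called in wild type and Reln fell, by 0.23 ± 0.07, and in knockout the lowest edgeR adjusted p was 0.104. Their summed level was 164 to 191 CPM in knockout LPS, 185 to 210 CPM in knockout PBS, 184 to 212 CPM in wild type LPS and 184 to 213 CPM in wild type PBS.

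Ackr1 (ENSMUSG00000037872, chromosome 1, 173331886 to 173333750, minus strand) encodes an atypical chemokine receptor that binds inflammatory chemokines without classical signalling and is found on venular endothelium and red blood cells. It stood at 73.6, 83.2 and 96.6 CPM (lowest, median, highest) in knockout LPS and 54.4, 57.7 and 67.9 CPM in knockout PBS. In wild type it stood at 90.3, 99.3 and 106 CPM after LPS and 55.1, 63.6 and 66.2 CPM after PBS. The LPS and PBS libraries did not overlap in either genotype, and the log2 fold change was 0.54 ± 0.07 in knockout and 0.64 ± 0.07 in wild type. Its exons overlap the 3′ end of Cadm3 on the same strand, a neuronal adhesion gene at 307 CPM on average, and how shared reads were counted is not given in the sources used here. Cadm3 itself had log2 fold changes of -0.21 ± 0.06 in knockout (edgeR adjusted p = 0.0159) and -0.01 ± 0.06 in wild type (adjusted p = 0.949). The 4 tested red blood cell genes, all of them globins, fell in both genotypes, to a summed level (7 genes of the list) of 2.46 to 56.4 CPM in knockout LPS, against 35.9 to 361 CPM in knockout PBS, and of 0.974 to 18.8 CPM in wild type LPS, against 27.9 to 81.1 CPM in wild type PBS. The part of Cadm3 reads in the Ackr1 value was not tested.

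Counted by overlap, 2 of the 10 members lay higher in all 6 LPS libraries than in all 6 PBS libraries of the knockout, Vwf and Ackr1, and 1 lay lower, Gkn3, where 4.19% of tested genes lay apart upward and 1.62% downward. In wild type 6 of the 10 lay higher, Bmx, Gja5 and the 4 venous genes, and Gkn3 lay lower, where 5.99% and 1.83% of tested genes lay apart.

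**Figure D2:**
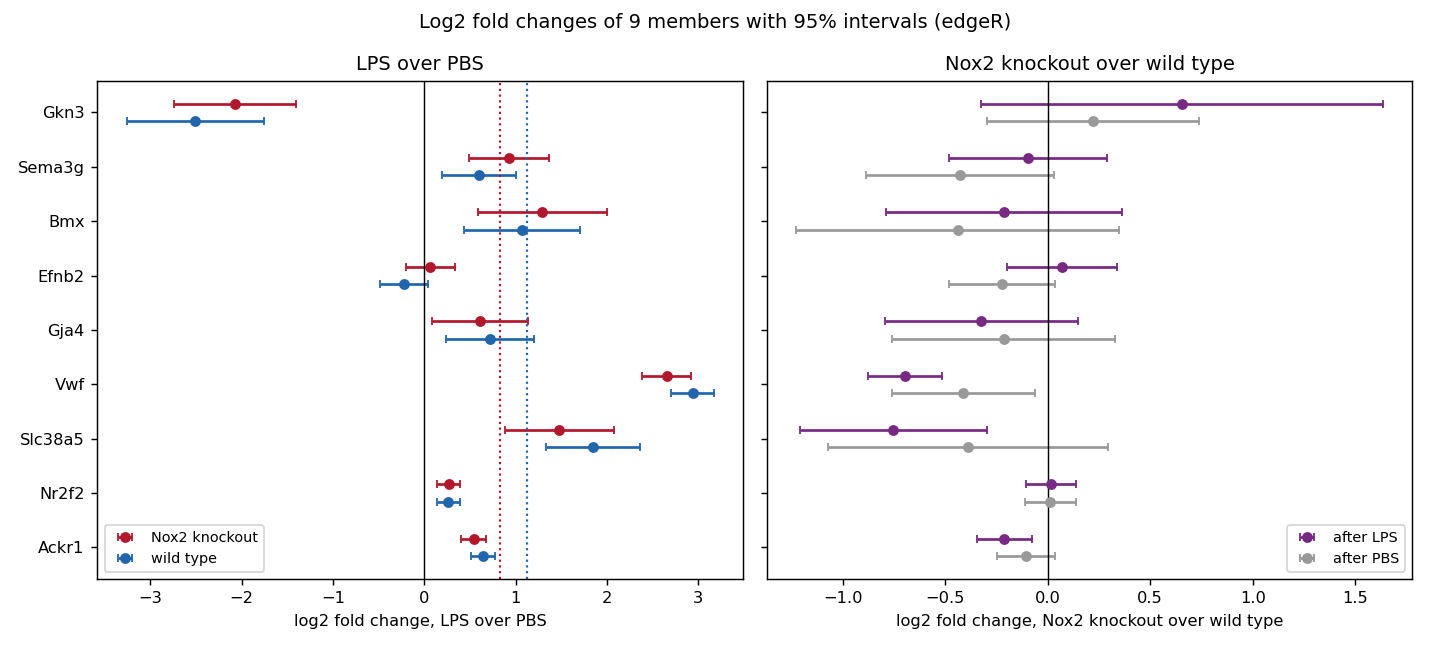
Log2 fold changes of the 9 tested members with 95% intervals from edgeR (horizontal axes), LPS over PBS in each genotype on the left and knockout over wild type after each injection on the right. Dotted lines on the left mark the median of 22 pan-endothelial genes, 0.83 in knockout and 1.13 in wild type, and on the right Vwf after LPS is the member called, at -0.70.

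Other endothelial genes moved with LPS as well, so the members were set beside lists of genes chosen with earlier results of these data known. Of 22 pan-endothelial genes, 18 rose in knockout and 20 rose in wild type, with median log2 fold changes of 0.83 and 1.13, and the others were not called. Among them were the junction genes Pecam1 (1.52 in knockout, 1.74 in wild type) and Cldn5 (1.65 and 2.17), the vascular cadherin gene Cdh5 (0.74 and 1.00) and the receptor gene Tie1 (0.68 and 1.37). Their summed level was 1017 to 1175 CPM in knockout LPS, 538 to 649 CPM in knockout PBS, 1212 to 1366 CPM in wild type LPS and 580 to 646 CPM in wild type PBS, with no overlap between LPS and PBS.

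The other venous genes had higher medians than the other arterial genes in both genotypes, a description with no test. Of 14 tested other venous genes, 11 rose in knockout and 13 rose in wild type, with medians of 2.03 and 2.27. Lcn2, an acute phase lipocalin, rose by 6.43 ± 0.33 and 7.25 ± 0.32, Ctla2a, a cysteine protease inhibitor gene, by 3.21 ± 0.18 and 3.72 ± 0.16, Lrg1 by 2.92 ± 0.24 and 3.63 ± 0.22, and Tmem252 by 2.38 ± 0.22 and 2.83 ± 0.19, knockout given before wild type. Lcn2 and Lrg1 are also made by other cells in inflammation. Of 19 tested other arterial genes, 9 rose and 3 fell in knockout and 11 rose and 2 fell in wild type. Their medians were 0.33 and 0.61. In whole-hemisphere RNA a rise or fall of a gene in this list need not be endothelial. Fbln5, an elastic fibre protein, rose by 1.51 ± 0.17 and 2.04 ± 0.15, Edn1, the precursor of the vasoconstrictor endothelin, by 1.23 ± 0.17 and 1.61 ± 0.16, Mgp, a calcification inhibitor, by 1.10 ± 0.08 and 1.13 ± 0.08, and Clu, which astrocytes make in quantity, by 0.60 ± 0.04 and 0.81 ± 0.04. Capillary genes as a list stayed near the median of all genes, with 3 of 12 higher and 1 lower in each genotype and medians of -0.00 and -0.05. The amino acid transporter gene Slc7a5 was among those that rose, by 0.61 ± 0.08 and 0.93 ± 0.08. The part of other cells in the levels of the capillary list was not tested.

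**Figure D3:**
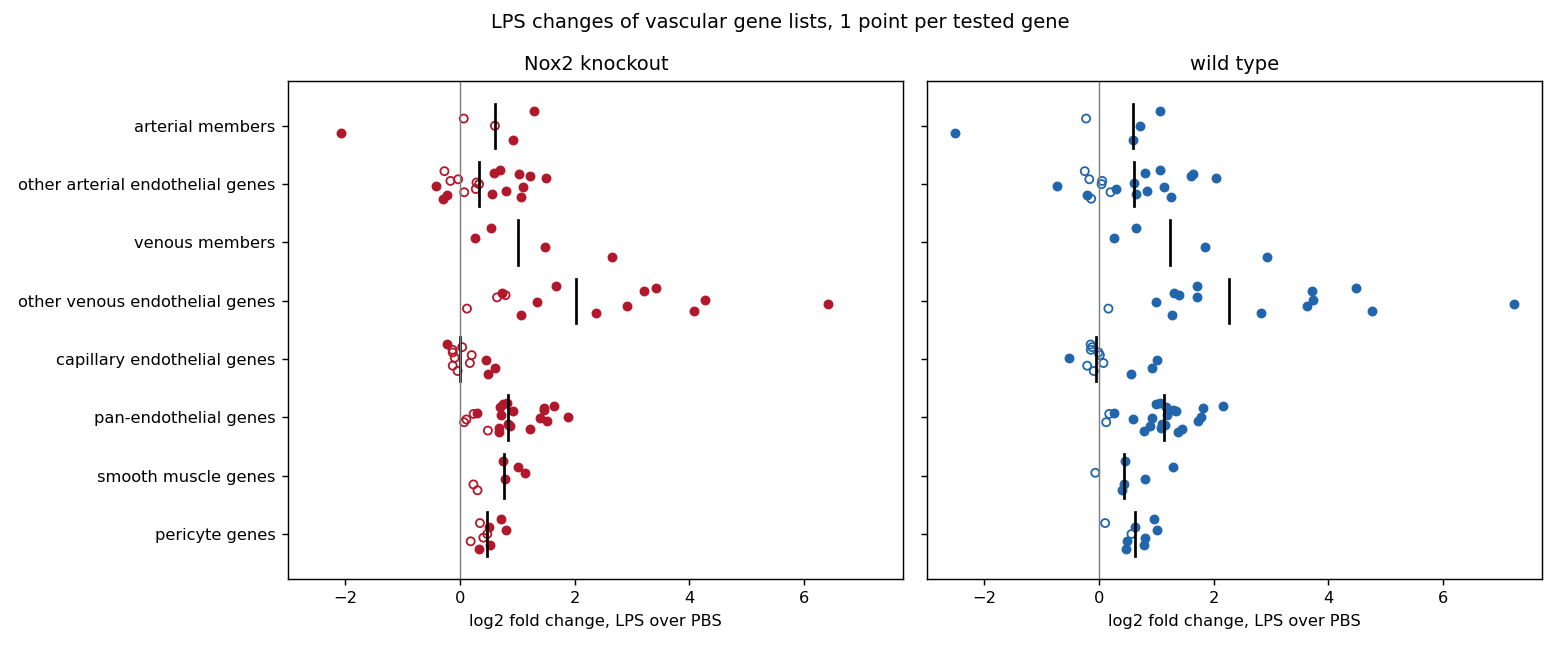
Log2 fold change with LPS (horizontal axis) of each tested gene of 8 vascular lists, knockout left and wild type right. Points are filled where called, and a black bar marks the list's median. Selp, at 0 counts in PBS, is drawn with the PBS group taken as 3 counts. The other venous genes reach the highest medians, 2.03 in knockout and 2.27 in wild type, and Gkn3 is the point farthest to the left.

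Mural cells, which wrap the vessels, also moved. Of 6 tested smooth muscle genes, 4 rose in knockout and 5 in wild type, with medians of 0.76 and 0.44, Myl9 among them at 0.79 ± 0.15 and 0.80 ± 0.14. Of 9 tested pericyte genes, 5 and 7 rose, with medians of 0.48 and 0.64, among them Rgs5 at 0.53 ± 0.07 and 0.78 ± 0.07. Of 8 tested fibroblast and meninges genes, 3 and 2 rose, with medians of 0.57 and 0.22. Summed smooth muscle levels were 88.6 to 117 CPM in knockout LPS, 59.2 to 87.3 CPM in knockout PBS, 95.1 to 123 CPM in wild type LPS and 70.5 to 88.9 CPM in wild type PBS, so that the arterial wall's smooth muscle genes stood higher in the groups where Gkn3 was lower. The part of mural and meningeal RNA in the members' changes was not tested.

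Other genes of the members' families were counted in the same way. Of 12 other ephrin and Eph receptor genes tested, 2 fell in knockout, and 1 rose and 2 fell in wild type, the one that rose being Ephb4, the venous receptor of ephrin-B2, at 1.40 ± 0.28 (0.79 ± 0.28 in knockout, not called). Of 13 class 3 semaphorin and receptor genes, Sema3f rose by 0.56 ± 0.19 and Plxna3 fell by 0.38 ± 0.14 in wild type, and the others were not called there. In knockout the lowest edgeR adjusted p among them was 0.275. Of 8 other connexin genes tested, 2 rose and 2 fell in knockout and 4 rose and 2 fell in wild type, with Gjb6 of astrocytes rising by 0.38 ± 0.07 and 0.50 ± 0.06. The only other Tec family kinase gene that passed the filter, Btk of B cells and myeloid cells, rose by 2.17 ± 0.32 and 1.48 ± 0.28. Of 7 astrocyte genes, 3 rose in knockout, and 5 rose and 1 fell in wild type, and of 6 choroid plexus genes Kl fell in wild type, by 0.88 ± 0.23.

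Vwf was followed further through genes of its storage and partners. Of 8 tested genes of Weibel-Palade bodies, Vwf partners and the endothelial clotting balance, 5 rose in knockout and 4 rose in wild type. Selp, the P-selectin that shares the Weibel-Palade body with Vwf, held 50 counts over knockout LPS and 0 over knockout PBS. It held 74 counts over wild type LPS and 0 over wild type PBS. With each PBS group taken as 3 counts, Selp was 16.9-fold higher after LPS in knockout and 27.3-fold higher in wild type. Angpt2, also stored there, rose by 1.90 ± 0.30 in knockout and 2.16 ± 0.26 in wild type, and Procr, the protein C receptor, by 1.28 ± 0.27 and 1.16 ± 0.27. Platelets and their precursors also make Vwf. Of 8 platelet and megakaryocyte genes 3 were tested, and Pf4, which brain macrophages also express, rose (1.21 ± 0.22 in wild type, and 158 counts over knockout LPS against 66 over knockout PBS), while Itga2b was at 0.08 ± 0.28 and -0.00 ± 0.28 and Gp1bb at 0.20 ± 0.25 and -0.56 ± 0.26, none of these called. Gp1ba, the platelet receptor chain for Vwf, was at 0 counts in all 24 libraries. The summed level of the platelet list was 13.2 to 18.4 CPM in knockout LPS, 8.88 to 13.3 CPM in knockout PBS, 9.16 to 19.9 CPM in wild type LPS and 8.34 to 15.04 CPM in wild type PBS.

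Set against the summed level of pan-endothelial genes, which itself rose with LPS, the members ranged from Vwf, highest, to Gkn3, lowest. Each member's CPM was taken as a percentage of the summed CPM of the 22 pan-endothelial genes in the same library. Group means were compared as a log2 ratio of LPS over PBS with no test. The sum averaged 592 CPM in knockout PBS and 1093 CPM in knockout LPS, and 618 CPM and 1298 CPM in wild type. A negative ratio is therefore not a fall of the gene, and Nr2f2 and Ackr1 rose in CPM in both genotypes. Relative to that sum Vwf stood higher by 1.76 in knockout and 1.89 in wild type, and Slc38a5 by 0.61 and 0.72. In the same order, Bmx stood at 0.36 and -0.05, Sema3g at 0.06 and -0.48, Gja4 at -0.23 and -0.38 and Ackr1 at -0.36 and -0.42. Nr2f2 stood at -0.62 and -0.80, Efnb2 at -0.80 and -1.29, and Gkn3 was lowest at -3.06 and -3.68. These values depend on the genes that stand for endothelium, and with the sum of Pecam1, Cldn5, Cdh5 and Tie1 they were lower for every member. Vwf then stood at 1.13 in knockout and 1.05 in wild type, Slc38a5 at 0.09 and -0.16, and Bmx at -0.24 and -0.89. Sema3g stood at -0.56 and -1.34, Gja4 at -0.81 and -1.18, Ackr1 at -0.98 and -1.26 and Nr2f2 at -1.22 and -1.65. Efnb2 stood at -1.42 and -2.10, and Gkn3 at -3.70 and -4.51. After PBS, Nr2f2 alone averaged 130% of that 4-gene sum in knockout and 128% in wild type. The part of other cells in the Nr2f2, Ackr1 and Efnb2 percentages was not tested.

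**Figure D4:**
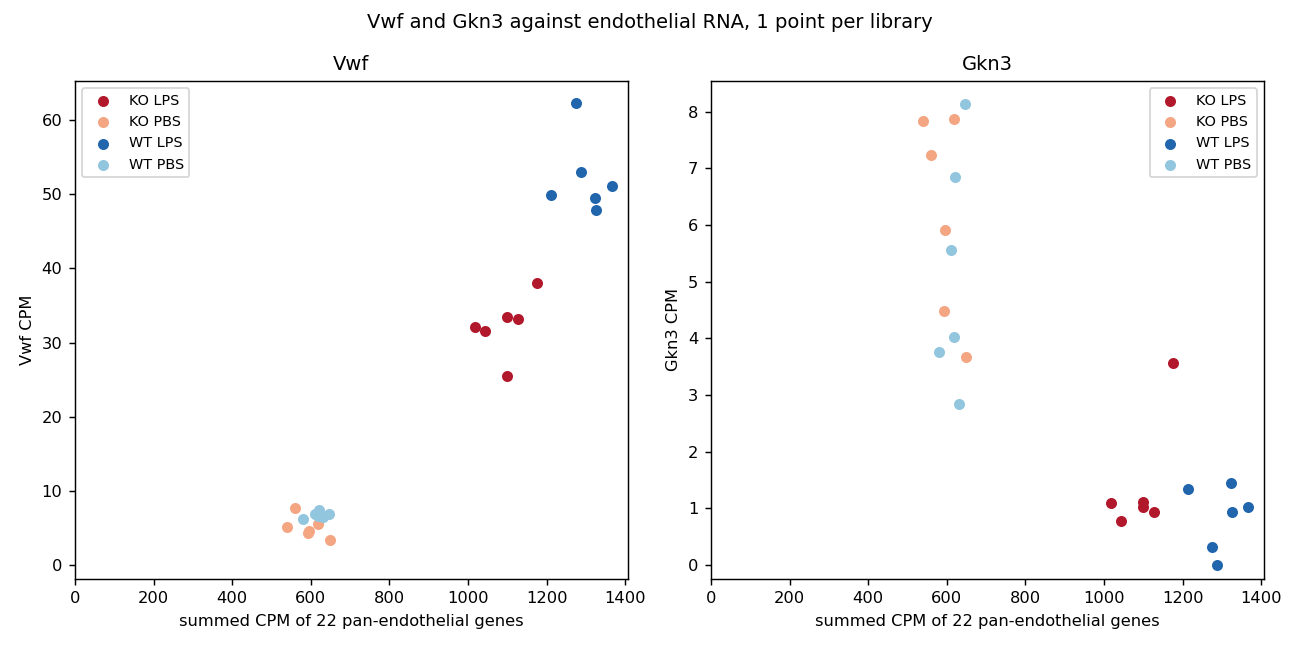
Level of Vwf (left) and Gkn3 (right) in CPM against the summed CPM of 22 pan-endothelial genes, 1 point per library, coloured by group (KO, knockout; WT, wild type). LPS libraries lie to the right of PBS libraries in both panels, with Vwf above and Gkn3 below the PBS libraries of the same genotype.

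Knockout and wild type were compared next, after each injection. After LPS, Vwf was lower in knockout by 0.70 ± 0.09 on the log2 scale (fold 0.618, 95% interval of the log2 value -0.88 to -0.52, edgeR adjusted p = 1.33e-06), and it was the single member called of 9, where 1.05% of tested genes were called and 0.786% were called lower. All 6 knockout LPS libraries, at 25.5 to 38.1 CPM, lay below all 6 wild type LPS libraries, at 47.9 to 62.3 CPM, as did 0.355% of tested genes, and none of the members lay above, where 0.313% of tested genes did. Leaving out any single library gave -0.74 to -0.63, and without replicates 1 and 2 of wild type LPS the value was -0.64 (adjusted p = 2.49e-05).

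The other venous members did not pass the threshold after LPS in this fit. Slc38a5 and Ackr1 did pass it in a fit with the replicate number as a block. Slc38a5 differed by -0.75 ± 0.23 (adjusted p = 0.0939, edgeR, 95% interval -1.21 to -0.30), and Ackr1 by -0.21 ± 0.07 (adjusted p = 0.115, 95% interval -0.34 to -0.08). Slc38a5 was called without replicate 2 of wild type LPS (-0.85), without replicate 5 of knockout LPS (-0.94) and without replicates 1 and 2 of wild type LPS together (-0.86, adjusted p = 0.0321). It lies on chromosome X, 1.16 Mb from Cybb. Nr2f2 differed by 0.01 ± 0.06 (adjusted p = 0.965), with a 95% interval of -0.11 to 0.14. Arterial members were not called, Gkn3 at 0.65 ± 0.49 (adjusted p = 0.661), Gja4 at -0.32 ± 0.23 (0.645), Bmx at -0.21 ± 0.28 (0.848), Sema3g at -0.10 ± 0.19 (0.910) and Efnb2 at 0.07 ± 0.13 (0.905). For Gkn3 the 95% interval ran from -0.33 to 1.64, so a difference anywhere in that range is not excluded at these counts.

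Other endothelial genes were also lower in knockout after LPS. Of the 22 pan-endothelial genes 6 were called lower, with a median log2 difference of -0.30, among them Pecam1 at -0.36 ± 0.09 (edgeR adjusted p = 0.0412) and Cldn5 at -0.43 ± 0.11 (adjusted p = 0.0376). Of the other venous genes 4 of 14 were called lower, among them Ctla2a at -0.81 ± 0.11 and Tmem252 at -0.75 ± 0.15, and of the other arterial genes 2 of 19, Fbln5 at -0.60 ± 0.13 and Clu at -0.16 ± 0.04. Of 12 capillary genes 1 was called lower, Slc16a1, and of 9 pericyte genes 2, Rgs5 and Vtn. As a percentage of the pan-endothelial sum, Vwf was 2.96 ± 0.33% (SD, n = 6) in knockout LPS and 4.04 ± 0.47% in wild type LPS, and the 2 groups did not overlap (2.32 to 3.24% against 3.61 to 4.89%). The ratio was chosen after its values had been seen, so it is given as a description and no p-value is read from it. With the sum of Pecam1, Cldn5, Cdh5 and Tie1 as the denominator, Vwf was 19.8 ± 4.32% in knockout LPS and 23.9 ± 4.84% in wild type LPS, and the groups overlapped. Nr2f2 was 8.31 ± 0.43% of the 22-gene sum in knockout LPS and 6.92 ± 0.49% in wild type LPS. It was 55.6 ± 10.8% and 40.8 ± 6.15% of the 4-gene sum. Its own level was 90.9 ± 6.92 CPM in knockout LPS and 89.6 ± 3.31 CPM in wild type LPS. The 22-gene sum averaged 1093 CPM and 1298 CPM in these groups. The Nr2f2 percentage of the 22-gene sum thus differed with a similar Nr2f2 level in CPM and a lower sum in knockout. The part of endothelial cells in the Nr2f2 level was not tested.

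After PBS edgeR called 0 of 9 members between knockout and wild type, where 0.132% of tested genes were called, 0.0417% higher and 0.0904% lower. None of the 10 lay apart between the groups, as 0.257% of tested genes did upward and 0.174% downward. One member, Vwf, had an unadjusted p under 0.05 (-0.41 ± 0.17, 95% interval -0.76 to -0.06, adjusted p = 0.471), and DESeq2 also called 0. The other 8 had adjusted p from 0.614 to 0.983 and log2 differences from -0.44 for Bmx to 0.22 for Gkn3. Gja5, outside the fit, held 0 to 2 counts in each knockout PBS library and 0 in each wild type PBS library. A two-sided exact permutation test of log2(CPM + 0.5) gave p = 0.0152, which rests on 7 counts. With the ties at 0 counts, this is the smallest p that the test could give after PBS. In edgeR with no filter on low counts, over 32360 genes, this Gja5 difference was not called (adjusted p = 0.283). After LPS the same exact test gave p = 0.225, where the smallest p possible was 0.00216.

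Whether the LPS change itself differed between genotypes was tested as the interaction, the LPS change in knockout minus that in wild type. EdgeR called 0 of 9 members, where 0.00695% of tested genes were called, 0 had an unadjusted p under 0.05, and DESeq2 called 0. For Vwf the difference of the changes was -0.28 ± 0.20, with a 95% interval of -0.68 to 0.12 (edgeR adjusted p = 0.676). For Gkn3 it was 0.43 ± 0.54, with a 95% interval of -0.66 to 1.53 (adjusted p = 0.843), and for Slc38a5 -0.37 ± 0.42 (adjusted p = 0.827). The other 6 tested members had adjusted p from 0.639 to 0.997.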

How the data were processed

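Raw counts of QuantSeq 3′ tags per gene, from 100 ng of total RNA of 24 left hemispheres, were deposited by the authors. The submitters' processing notes name STAR 2.7.3a and Subread 2.0.0 with its featureCounts for alignment and counting, after bcl2fastq, and the build GRCm38. For strand, duplicates, shared reads and annotation release, settings are not given in the sources used. Of 55421 identifiers 267 had no symbol and took 0.00933 to 0.0220% of counts, and they were kept as genes. Gene positions are from GENCODE M21 (GRCm38).

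All libraries entered a single edgeR 4.0.16 quasi-likelihood fit (R 4.3.3) with a mean per group, TMM normalisation, 20 residual degrees of freedom and filterByExpr at a minimum count of 10, which left 14380 genes. Benjamini-Hochberg adjustment ran over all of these in each of 5 comparisons, with calls at an adjusted p under 0.05. Standard errors were derived from this fit, as the size of the log2 fold change over the square root of the F statistic, and 95% intervals from them. Simulated counts with known changes were used to check the calls of the fit, not its standard errors or intervals. The comparisons within a genotype or injection share groups, so their values are not independent. Alternatives were DESeq2 1.42.0 and its size factors, no filter, 2-group fits, a replicate block, other library sizes and leaving out libraries.

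The members and gene lists were chosen with earlier results of these data known. From each list the 4 tested genes with the smallest p for LPS in wild type could be named, together with Pecam1, Cldn5, Cdh5 and Tie1. Gp1ba was named after its values were seen, and some genes that the rule takes are not reported here. Each library is a separate animal per the labels. Molecular identifiers are not mentioned, so a floor of 3 counts covers counting error alone.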

Additional observations from a re-analysis of the deposited data

Results flagged for a closer look

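In 5 of 39 groups examined, 1 library lay farther from the other 5 than Dixon's 95% criterion allows, where chance alone gives about 5% of groups. Gkn3 stood at 3.56 CPM in replicate 6 of knockout LPS, against 0.77 to 1.12 CPM in the other knockout LPS libraries. Bmx stood at 2.74 CPM in replicate 6 of knockout PBS, against 0.54 to 1.05 CPM in the others. Gja5 stood at 1.02 CPM in replicate 4 of knockout LPS, against 0 to 0.22 CPM, and rests on 4 counts there. Vwf stood at 62.33 CPM in replicate 1 of wild type LPS, 1 of the pair of libraries that stand apart, against 47.91 to 53.03 CPM in the others. Ackr1 stood at 67.87 CPM in replicate 1 of knockout PBS, against 54.36 to 59.20 CPM in the others.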

How the results depend on the processing

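Of 931 log2 fold changes of members under an alternative, 887 kept their direction and side of the threshold, 16 lost a call, 6 gained one and 22 changed sign. All sign changes came from leaving out 1 library, and none of the values concerned was called: the Nr2f2 interaction ran from -0.0365 to 0.0380 and its genotype differences between -0.0230 and 0.0513 (PBS) and between -0.0042 and 0.0430 (LPS), the Efnb2 difference after LPS from -0.0041 to 0.1536, the Gja4 interaction from -0.2507 to 0.0273 and the Gkn3 interaction from -0.0491 to 0.6424. The members called between genotypes after LPS numbered 1 to 2 when 1 library was left out, 2 without replicates 1 and 2 of wild type LPS together, and 3 with the replicate number as a block (Slc38a5, adjusted p = 0.0412, and Ackr1, adjusted p = 0.0486, beside Vwf). The members called for LPS in wild type numbered 6 to 8 when 1 library was left out and 7 to 9 under the other alternatives. With no filter they numbered 7, with Gja5 among them and without Sema3g and Gja4. The labels do not say that replicate numbers pair animals, so no pairing was assumed. A correlation over 0.1 was met in 2 of 36 same-numbered pairs and in 1 of 180 pairs of other numbers. The medians were 0.03 and -0.003. Of 24 libraries, 11 correlated best with their own number, a hint of shared variation from the data and not the design. Over all genes, calls after PBS between genotypes numbered 19, but 88 with no filter, 33 in a 2-group fit and 39 with the block. After LPS they numbered 151, but 293 with no filter, 273 with the block and 561 without replicates 1 and 2 of wild type LPS, and for the interaction 1, but 10 with DESeq2, 67 with no filter, 8 with the block and 249 without those replicates. The causes were not tested. Depth limits Gja5, Gkn3 and Bmx most, with 0 to 9 counts over a group for Gja5.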
